A study of Rattus norvegicus with 12 samples.

Results

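The experiment described here is the knockdown of Yap in neonatal rat cardiomyocytes, followed across 11161 genes. Members were taken from the deposited table where the average over the 6 cardiomyocyte libraries reached 0.5 FPKM (sequenced fragments scaled to transcript length and library size), which 11161 of all 14636 genes did. The rule used the mean level over both siRNA groups, so a gene low in either group could pass through its level in the other. It left 3475 genes outside, 745 of them at 0 in each of the 6 libraries. Just inside the limit lay LOC688925 at 0.5 FPKM with Qpct and Trpm8 at 0.5017 FPKM, and just outside it LOC100363289, Acrbp and Kcnd1 at 0.4983 FPKM. Both groups were primary heart muscle cells of Sprague Dawley rats aged 2 days, purified on a Percoll gradient after enzymatic dissociation, grown in medium with 15% fetal bovine serum and transfected 16 h after plating. The 3 Yap-siRNA libraries came from cells given a mix of 2 siRNAs against Yap at 25 nM each. The 3 control-siRNA libraries came from cells given a universal negative control siRNA. The sample notes list 2 siRNAs at 25 nM each for this group as well. RNA of both groups was taken 48 h after transfection, and its polyadenylated part was sequenced from low input. Primary cultures of this kind hold some cells of other types, and effects of the single siRNAs of the mix cannot be told apart. The same study holds 6 libraries of cardiac fibroblasts with the same siRNAs, which served here only for the spread of the fit and for 1 comparison at the end.

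YAP, encoded by Yap1, is the transcriptional coactivator that the Hippo kinase cascade holds in the cytoplasm. In the nucleus it binds no DNA itself and acts through the TEAD factors, which recognise a short element in promoters and enhancers. In the heart it is best known for sustaining cardiomyocyte proliferation before and shortly after birth, the period in which these cells leave the cell cycle, exchange fetal for adult contractile proteins and turn from glucose to fatty acids as fuel.

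Yap1 stood at 5.90, 4.43 and 6.0 FPKM with Yap siRNA, against 55.3, 60.8 and 63.1 FPKM with control siRNA. The 3 Yap-siRNA libraries were far below the 3 control libraries, and their mean was 9.11% of the control mean, a log2 fold change of −3.24 ± 0.10 (SE; adjusted p = 1.32e-11). Libraries of a group resembled each other, with Spearman correlations across genes of 0.990 to 0.994, and pairs of a Yap-siRNA and a control library correlated at 0.957 to 0.970. Defining cardiomyocyte genes were high in all 6 libraries. Tnnt2, the cardiac troponin T gene, reached 8448 to 9801 FPKM with Yap siRNA and 5068 to 5903 FPKM with control siRNA. FPKM of all genes summed to between 595605 and 620119 in the Yap-siRNA libraries and between 573430 and 585883 in the control libraries. The number of reads behind these values is unknown. Nothing in the labels tells whether replicates were separate cultures or animals, so p-values cover only the variation among these 6 libraries and their fibroblast counterparts, which may be technical.

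Markers of other cell types were present in both groups. The summed level of 17 endothelial genes was 492.4 to 567.1 FPKM with Yap siRNA and 656.3 to 771.1 FPKM with control siRNA, with no overlap. Eng, endoglin, had the largest part in this difference, at a mean of 162.6 FPKM with Yap siRNA and 278.55 FPKM with control siRNA. That of 14 fibroblast genes was 425.7 to 523.1 FPKM with Yap siRNA and 390.5 to 546.3 FPKM with control siRNA, which overlap. The 11 leukocyte genes summed to 233.7 to 317.8 FPKM with Yap siRNA and 233.0 to 304.4 FPKM with control siRNA. The 8 epicardial genes, keratin genes among them, summed to 13.4 to 19.6 FPKM with Yap siRNA and 28.1 to 37.0 FPKM with control siRNA. The keratin gene Krt18 had the largest part in this difference, at a mean of 1.71 FPKM with Yap siRNA and 13.43 FPKM with control siRNA. Krt8, Wt1 and Msln were also called lower, Tbx18 was called higher, and Aldh1a2, Upk1b and Krt19 did not pass. Defining genes of T cells and granulocytes were at or near 0, with Cd3e at 0 in all 6 libraries and S100a8 at no more than 0.70 FPKM. Among Schwann and neuronal markers Th, which makes the catecholamine precursor, was at 0 in all 6 libraries, but Dbh, a further enzyme of noradrenaline synthesis, stood at 9.38 to 11.43 FPKM with Yap siRNA and 6.69 to 7.28 FPKM with control siRNA and was called higher (0.47), and Uchl1, a neuronal hydrolase, stood at 31.57 to 40.11 FPKM with Yap siRNA and 51.11 to 55.59 FPKM with control siRNA and was called lower (−0.53). Cldn5, an endothelial junction gene, reached at most 0.15 FPKM. In bulk samples, fewer cells of a type and less RNA per cell cannot be told apart. The part of these other cells in the results below was not tested.

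A gene was called when limma's moderated test, adjusted by the Benjamini-Hochberg method over the 11161 genes, gave p under 0.05. By that rule 5683 genes (50.9%) differed, of which 2418 (21.7% of those tested) were higher and 3265 (29.3%) were lower with Yap siRNA. Most of these differences were small. Among the called genes 57.4% moved by less than 0.5 on the log2 scale, and the central 90% of all genes lay between −0.73 and 0.74, around a median of −0.06. A log2 fold change of at least 1 was reached by 265 called genes (2.37%) upward and by 192 (1.72%) downward. The balance of directions depends on how libraries are scaled. The called genes were 42.5% higher ones on the deposited scale, 47.8% after quantile normalization and 53.3% after median-of-ratios scaling, which shifts the median of all genes to 0.01. The 6 libraries did not overlap between groups for 6020 genes, of which 5264 were called, beside the 50.9% of genes called in all.

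**Figure D1:**
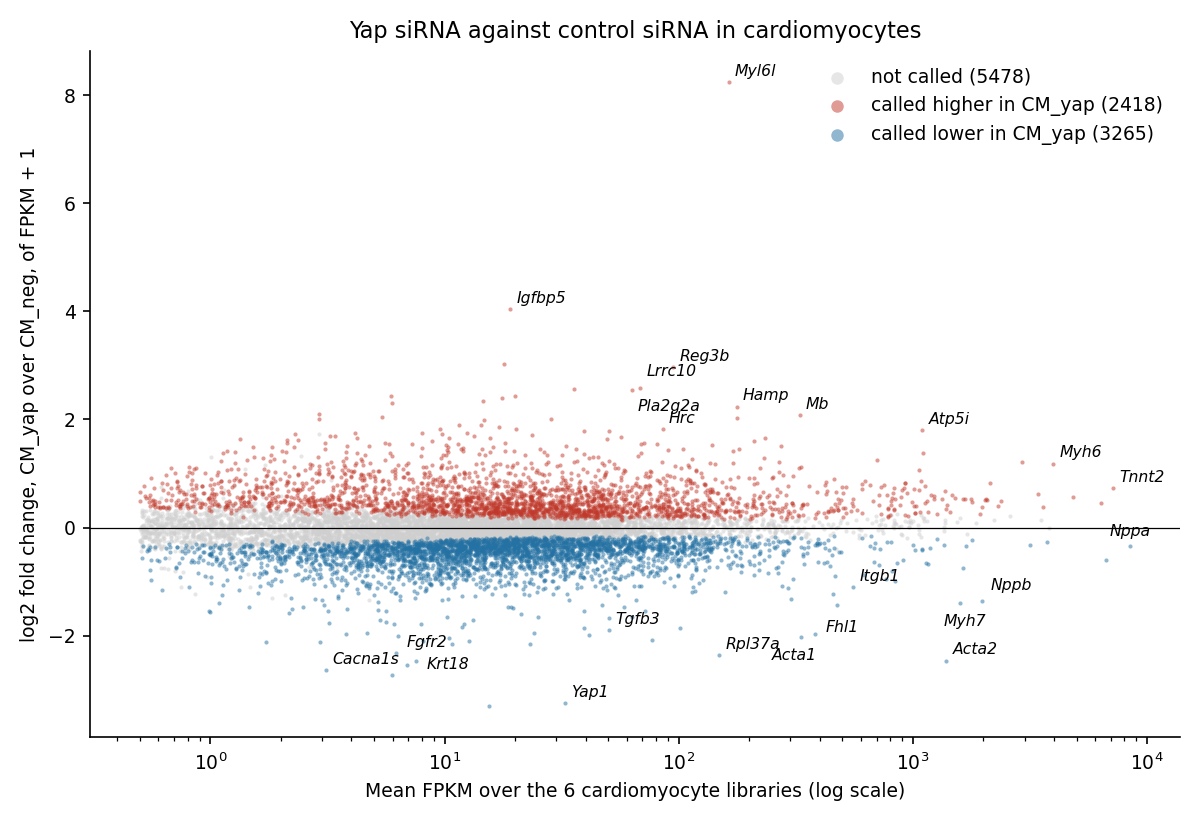
Each point is 1 of the 11161 genes, placed by its mean FPKM over the 6 cardiomyocyte libraries (log axis) and its log2 fold change of FPKM + 1 (Yap siRNA, CM_yap, over control siRNA, CM_neg), in red where called higher, blue where called lower and grey where not called. Among the 85 genes of at least 1000 FPKM 45 were higher with Yap siRNA and 19 lower, whereas lower genes outnumber higher ones between 1 and 100 FPKM.

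On the deposited scale, the balance of directions went with the level of the gene. Of the 85 genes that averaged 1000 FPKM or more, 52.9% were higher with Yap siRNA and 22.4% lower, with a median log2 fold change of 0.26. Of the 4002 genes between 5 and 20 FPKM, 17.5% were higher and 32.4% lower, with a median of −0.10. The plot of level against change shows this tilt. The 20 most abundant genes held 13.6%, 14.3% and 13.8% of all FPKM in the Yap-siRNA libraries, against 11.8%, 11.9% and 12.8% in the control libraries. They include 8 genes of filament proteins, and their changes were uneven. Tnnt2 (0.73), Myh6 (1.18), Tnni3 (1.21) and Tpm1 (0.46), genes of adult or shared sarcomere proteins, rose on the log2 scale. Actc1, the cardiac actin gene, fell by 0.60 and Nppa, the atrial natriuretic peptide gene, by 0.35. Tnnc1, the cardiac troponin C gene, averaged 3806 FPKM with Yap siRNA and 3843 FPKM with control siRNA and did not pass.

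Genes of secreted proteins and of muscle proteins stood among the 25 largest rises. Igfbp5, which encodes a binding protein for insulin-like growth factors, stood at 31.2, 39.4 and 39.4 FPKM with Yap siRNA, against 0.54, 1.63 and 1.89 FPKM with control siRNA. It was near absent from the control libraries and rose about evenly in the 3 Yap-siRNA libraries (4.04 ± 0.22 SE, adjusted p = 5.55e-09). Lrrc10, a leucine-rich repeat protein of the cardiac Z-line region, stood at 119, 109.8 and 124 FPKM with Yap siRNA, against 20.4, 18.2 and 18.3 FPKM with control siRNA (2.57 ± 0.14, adjusted p = 6.16e-09). Sphkap, an anchoring protein for protein kinase A, stood at 28.8, 37.7 and 36.6 FPKM with Yap siRNA, against 4.79, 5.20 and 6.70 FPKM with control siRNA (2.43 ± 0.12, adjusted p = 3.32e-09). Groups were far apart for each of these genes. Mb, the gene of the oxygen-binding protein myoglobin, stood at 543, 515 and 535 FPKM with Yap siRNA, against 115, 122 and 141 FPKM with control siRNA (2.08 ± 0.11). Secreted defence genes stood among the same 25 rises. Reg3b, a secreted lectin, averaged 168 FPKM with Yap siRNA and 20.6 FPKM with control siRNA. Pla2g2a, a secreted phospholipase, averaged 108 FPKM with Yap siRNA and 17.7 FPKM with control siRNA. Hamp, the gene of the iron-regulating hormone hepcidin, averaged 290.9 FPKM with Yap siRNA and 62.6 FPKM with control siRNA.

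Receptors and surface proteins were also among these rises. Lpar2, a receptor for lysophosphatidic acid, stood at 12.5, 11.04 and 8.14 FPKM with Yap siRNA, against 1.5, 1.47 and 1.00 FPKM with control siRNA. Gpr22, an orphan receptor of heart and brain, stood at 21.4, 25.0 and 23.0 FPKM with Yap siRNA, against 5.76, 4.97 and 5.80 FPKM with control siRNA. Efnb3, an ephrin ligand, averaged 46.3 FPKM with Yap siRNA and 10.8 FPKM with control siRNA. None of these overlapped between the groups. Atp1b2, a beta subunit of the sodium pump, rose by 1.99 on the log2 scale, Cd248, the mesenchymal surface protein endosialin, by 1.90, and Asb11, a muscle ubiquitin ligase adaptor, by 1.73. Dhrs7c, a dehydrogenase of the sarcoplasmic reticulum, rose by 2.33. Myl6l is uncertain, since it shares sequence with Myl6. The table gives it at 212, 519 and 250 FPKM with Yap siRNA and at 0 in the 3 control libraries, while Myl6 stood at 991, 684 and 969.7 FPKM with Yap siRNA, against 1211, 1159.6 and 1129.5 FPKM with control siRNA.

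Actin genes known from smooth and skeletal muscle stood among the 25 largest falls. Acta2, the smooth muscle alpha-actin that neonatal cardiomyocytes also express, stood at 453, 402 and 425 FPKM with Yap siRNA, against 2361, 2249 and 2449 FPKM with control siRNA. Every Yap-siRNA library was far below every control library (−2.46 ± 0.07 SE, adjusted p = 4.5e-12). Acta1, the skeletal alpha-actin of the fetal heart program, stood at 133, 114 and 147 FPKM with Yap siRNA, against 510.5, 545 and 549 FPKM with control siRNA (−2.02 ± 0.15). Fhl1, a LIM-domain protein of the sarcomere, stood at 165, 132 and 172 FPKM with Yap siRNA, against 602, 652 and 574 FPKM with control siRNA (−1.96 ± 0.09). The groups did not overlap for any of the 3. Another smooth muscle actin gene, Actg2, was called higher (0.78), with means of 12.4 FPKM with Yap siRNA and 6.76 FPKM with control siRNA.

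Growth factor receptors, membrane proteins and a keratin were among the other falls. Fgfr2, a receptor for fibroblast growth factors, stood at 1.59, 1.49 and 1.18 FPKM with Yap siRNA, against 11.98, 10.8 and 10.3 FPKM with control siRNA (−2.32). Ntrk2, the receptor for brain-derived neurotrophic factor, stood at 2.29, 2.20 and 2.05 FPKM with Yap siRNA, against 8.80, 9.99 and 11.2 FPKM with control siRNA (−1.79). Chrna1, a subunit of the muscle acetylcholine receptor, stood at 4.59, 3.83 and 1.88 FPKM with Yap siRNA, against 17.7, 16.6 and 19.9 FPKM with control siRNA (−2.16). All 3 were low in every Yap-siRNA library. Slc1a3, a glutamate and aspartate transporter, averaged 7.85 FPKM with Yap siRNA and 38.3 FPKM with control siRNA. Krt18, a keratin of simple epithelia and of the mesothelium, averaged 1.71 ± 0.82 FPKM with Yap siRNA and 13.4 ± 0.08 FPKM with control siRNA (SD, n = 3 each). Fads3, of the fatty acid desaturase family, averaged 29.3 FPKM with Yap siRNA and 124.8 FPKM with control siRNA. Rpl37a is uncertain, because a near-identical copy, Rpl37a-ps1, moved the other way. Rpl37a averaged 46.9 FPKM with Yap siRNA and 251 FPKM with control siRNA, a log2 fold change of −2.36, while that of Rpl37a-ps1 was 0.67.

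**Figure D2:**
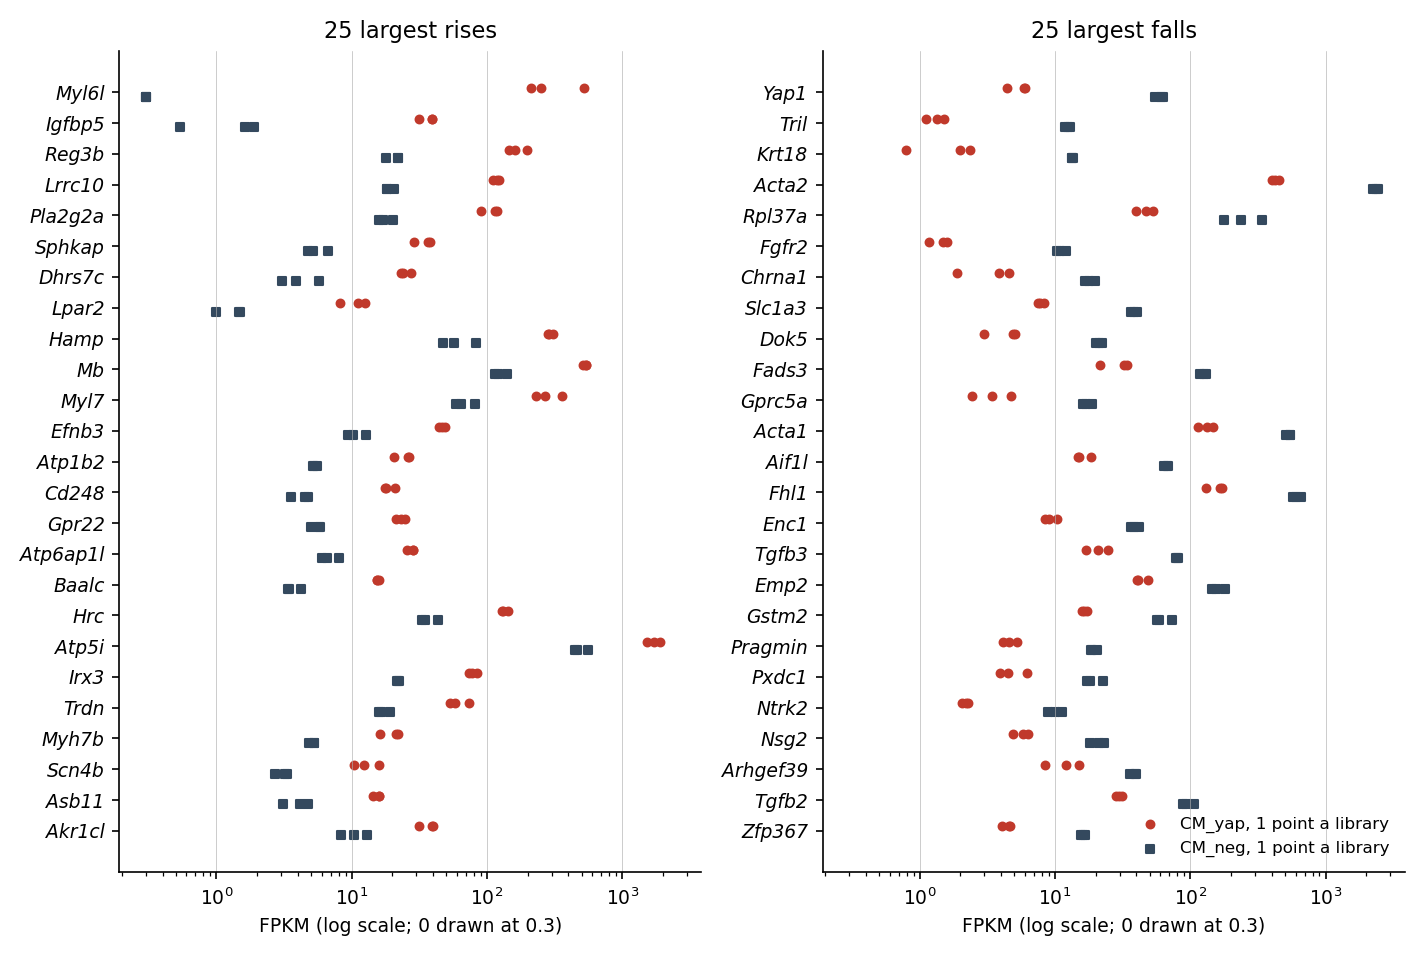
FPKM (log axis) in each library for the 25 largest rises (left panel) and the 25 largest falls (right panel) among called genes of at least 10 FPKM in the higher group whose libraries do not overlap. Red circles are the 3 Yap-siRNA libraries (CM_yap) and dark squares the 3 control-siRNA libraries (CM_neg), with values of 0 drawn at 0.3; Igfbp5 lies at 31.2 to 39.4 FPKM with Yap siRNA, against 0.54 to 1.89 FPKM with control siRNA.

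Because YAP acts through TEAD factors, promoters were read for the TEAD element. The promoters printed here are examples picked from those that hold the element, and they were not ranked by the size of the change. They therefore cannot show how often the element occurs, for which the shares over all promoters searched are given further below. The windows below are 60 bases long, come from RefSeq (assembly GRCr8) and are printed 5′ to 3′ on the strand of the gene, with the TEAD element in capitals as GGAATG, or as CATTCC where it lies on the other strand. The first 7 belong to genes that fell, 2 of them well-known YAP targets of the CCN family. The last 2 belong to genes that rose and show that the element is found there too.
Ctgf: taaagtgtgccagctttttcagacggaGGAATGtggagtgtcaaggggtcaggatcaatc
Cyr61: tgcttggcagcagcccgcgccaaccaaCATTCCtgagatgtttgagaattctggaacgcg
Acta2: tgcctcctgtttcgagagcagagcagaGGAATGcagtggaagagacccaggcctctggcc
Acta1: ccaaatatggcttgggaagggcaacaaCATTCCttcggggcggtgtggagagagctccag
Cacna1s: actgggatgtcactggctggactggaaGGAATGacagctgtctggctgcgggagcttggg
Itgb1: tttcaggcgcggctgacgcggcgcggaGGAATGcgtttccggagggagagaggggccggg
Nppb: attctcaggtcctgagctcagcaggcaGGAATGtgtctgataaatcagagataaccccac
Myh6: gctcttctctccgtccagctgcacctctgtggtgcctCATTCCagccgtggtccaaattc
Tnnt2: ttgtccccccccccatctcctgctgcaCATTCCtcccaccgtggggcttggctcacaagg

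The Ctgf window lies at chr1:22624748-22624807 on the minus strand, the Cyr61 window at chr2:237225770-237225829 on the minus strand and the Acta2 window at chr1:241172667-241172726 on the minus strand. The Acta1 window lies at chr19:68784229-68784288 on the minus strand, the Cacna1s window at chr13:50045572-50045631 on the plus strand and the Itgb1 window at chr19:73602104-73602163 on the plus strand. The Nppb window lies at chr5:163699850-163699909 on the plus strand, the Myh6 window at chr15:32411698-32411757 on the minus strand and the Tnnt2 window at chr13:49819013-49819072 on the plus strand. Counted from the annotated start of transcription, the element begins at −166 in Ctgf, −113 in Cyr61, −196 in Acta2, −67 in Acta1, −69 in Cacna1s, −146 in Itgb1, −131 in Nppb, −23 in Myh6 and −83 in Tnnt2. Ctgf, a matrix-associated growth regulator, stood at 262, 229 and 274 FPKM with Yap siRNA, against 731, 756 and 585 FPKM with control siRNA. Cyr61, its relative, stood at 106, 88.3 and 92.0 FPKM with Yap siRNA, against 230.4, 242 and 186 FPKM with control siRNA. Neither overlapped between the groups.

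The 250 bases before the start of transcription were searched on both strands for 9062 of the 11161 genes. GGAATG or CATTCC was found in 26 of 138 promoters of called genes that fell by at least 1 on the log2 scale (18.8%), in 14 of 197 promoters of called genes that rose as much (7.11%) and in 913 of all 9062 (10.1%). At a limit of 0.5 the shares were 13.4% of 1030 fallen genes and 9.36% of 876 risen genes. The share over all 27457 promoters of the reference was 11.8%. The E2F element TTTGGCGC, of cell-cycle promoters, was found in 3 genes that fell by at least 1 (2.17%). It was found in 1 gene that rose as much (0.508%) and in 0.761% of all tested. The MEF2 element, of muscle promoters, was found in 1 fallen gene (0.725%), 7 risen genes (3.55%) and 1.52% of all. The nuclear receptor element TCAAGGTCA, which ERR factors bind, was found in no fallen gene, 2 risen genes (1.02%) and 0.188% of all. The CArG box, to which SRF binds, was found in 4 fallen genes (2.90%), 2 risen genes (1.02%) and 1.10% of all. The CHR element TTTGAA, of cell-cycle promoters, was found in 12.3% of promoters of fallen genes, in 9.64% of those of risen genes and in 908 of all 9062. The interferon response element was found in 3 fallen genes (2.17%), 6 risen genes (3.05%) and 2.64% of all. For the E2F, MEF2, ERR, CArG and interferon elements the shares of fallen and risen genes rest on few promoters. No difference in shares was tested. A match describes letters in this window and is not a site of binding, and distant enhancers were not read.

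**Figure D3:**
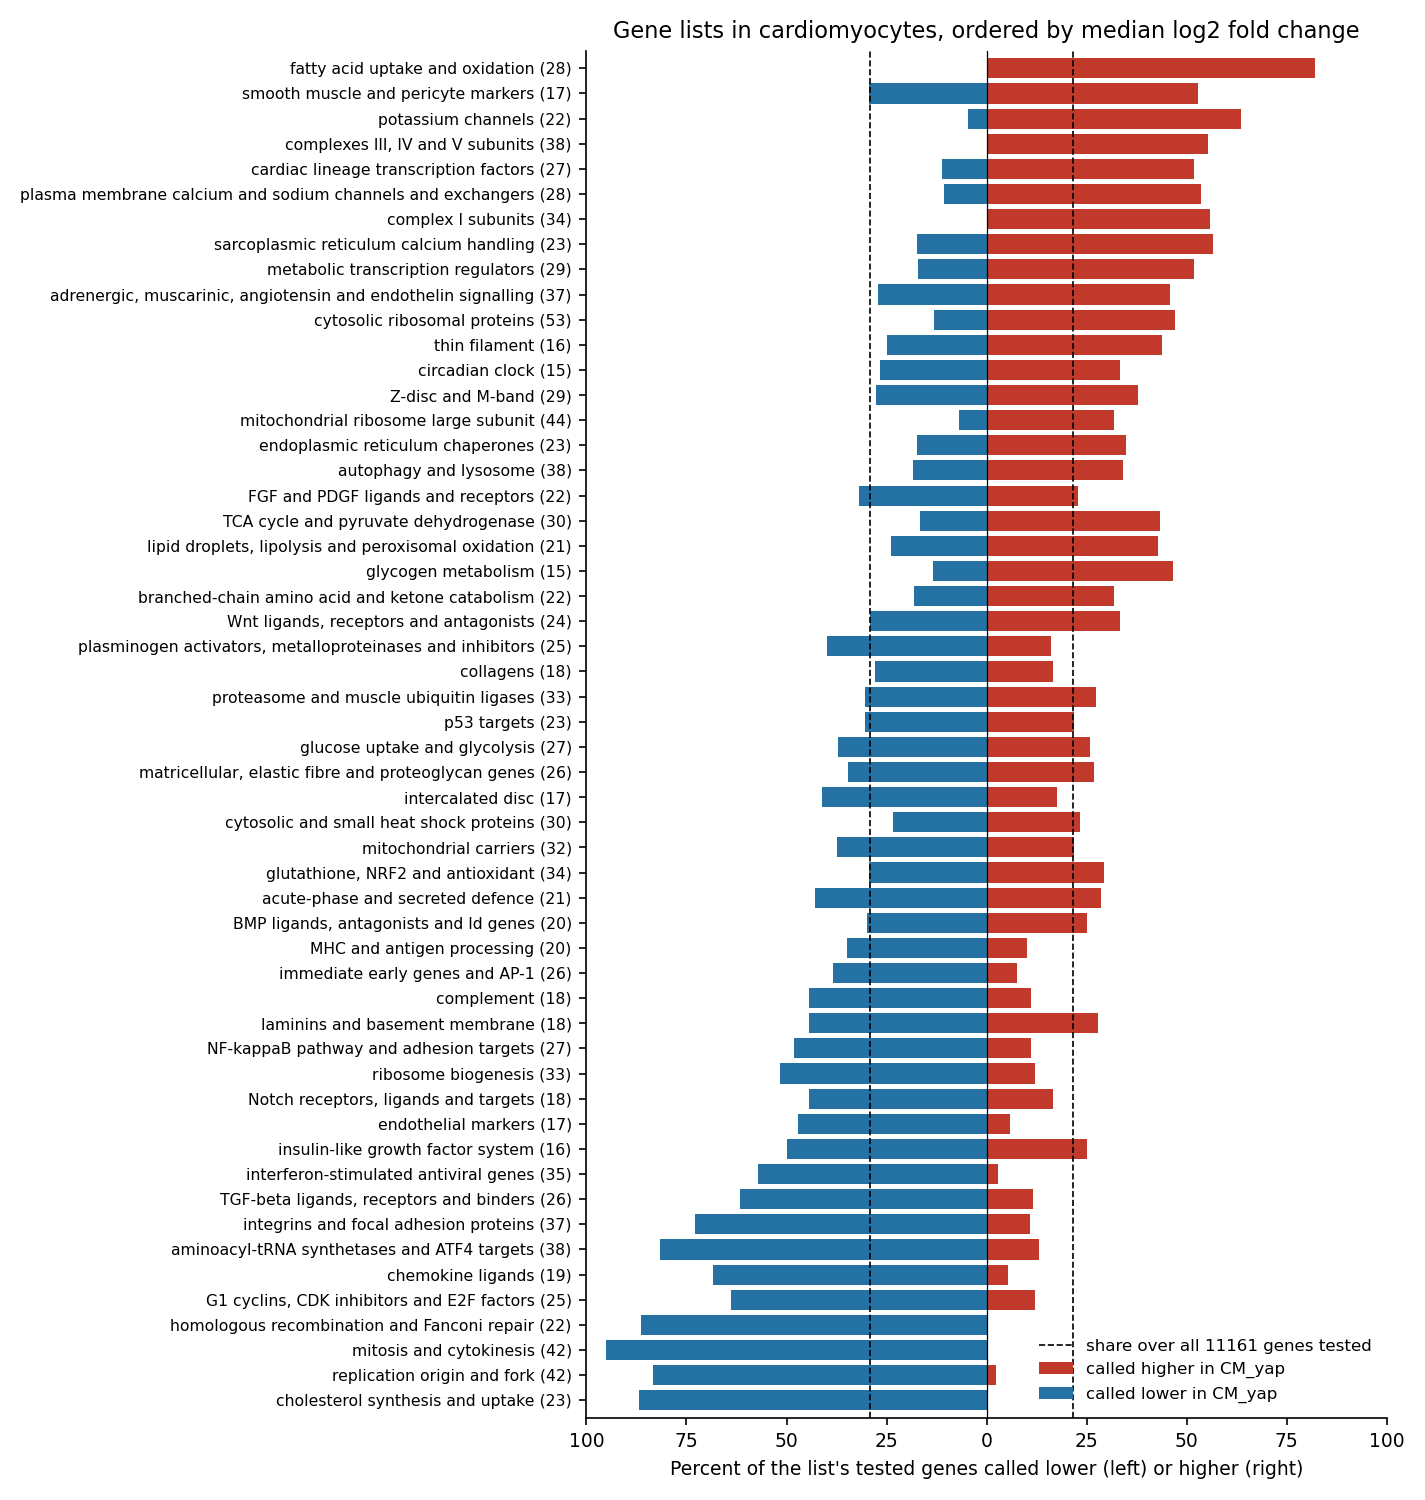
For each list with at least 15 tested genes (number in brackets), bars give the percent of those genes called higher (red, right) or lower (blue, left) with Yap siRNA (CM_yap), with lists ordered by their median log2 fold change and dashed lines at the shares over all 11161 genes (21.7% higher, 29.3% lower). Fatty acid uptake and oxidation (23 of 28 higher) stands at the top, and cholesterol synthesis, replication and mitosis stand at the bottom with almost only lower genes.

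Genes of the contractile filaments were more often higher than lower, and the ventricular myosin heavy chains moved in opposite directions. Of 11 thick filament genes 9 were higher and 2 lower with Yap siRNA (median log2 fold change 0.57, against −0.06 over all genes and a background of 21.7% higher and 29.3% lower). Counts of the lists below stand against the same background. After quantile normalization 7 of the thick filament genes were higher and 2 lower. The ventricular light chain genes Myl2 (0.194) and Myl3 (0.104) did not pass there. Myh6, the fast alpha-myosin heavy chain of the adult rat ventricle, stood at 4765, 6102 and 5676 FPKM with Yap siRNA, against 2195, 2276 and 2822 FPKM with control siRNA (1.18 ± 0.10 SE, adjusted p = 2.15e-07). Myh7, the slow beta chain of the fetal ventricle, stood at 814, 947 and 854 FPKM with Yap siRNA, against 2079.5, 2353 and 2484 FPKM with control siRNA (−1.40 ± 0.09, adjusted p = 1.89e-08). The groups did not overlap for either chain. The alpha chain thus made up 86.3 ± 0.79% of both chains with Yap siRNA and 51.2 ± 2.01% with control siRNA (SD, n = 3 each). Myl7, the atrial regulatory light chain, rose too, to 229, 270.0 and 357 FPKM with Yap siRNA, against 59.3, 63.8 and 81.7 FPKM with control siRNA. Myh7b, a further slow myosin, rose by 1.76. Mybpc2, the fast skeletal myosin-binding protein C, fell by 1.75 and was the other thick filament gene to fall.

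Among 16 thin filament genes 7 were higher and 4 lower, with a median of 0.13. After quantile normalization 7 were higher and 6 lower, with Tnnc1 (−0.326) among the lower ones. Tnni3, the adult cardiac troponin I, stood at 4149, 4715 and 3483 FPKM with Yap siRNA, against 1734, 1695 and 1852 FPKM with control siRNA (1.21 ± 0.10). Tnni1, the slow skeletal troponin I of the fetal heart, rose as well, by 0.85, and the adult share of both moved only to 83.5% with Yap siRNA, against 79.9% with control siRNA. Among 29 Z-disc and M-band genes 11 were higher and 8 lower. Tcap, a titin-capping protein, stood at 197, 211 and 210.4 FPKM with Yap siRNA, against 66.0, 67.3 and 78.8 FPKM with control siRNA. Smyd1, a methyltransferase of muscle, rose by 1.10, and Myom2, an M-band protein of fast and mature muscle, by 1.17. Csrp3, a LIM-domain protein of the Z-disc, fell by 0.60, and Pdlim5 fell by 0.88.

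**Figure D4:**
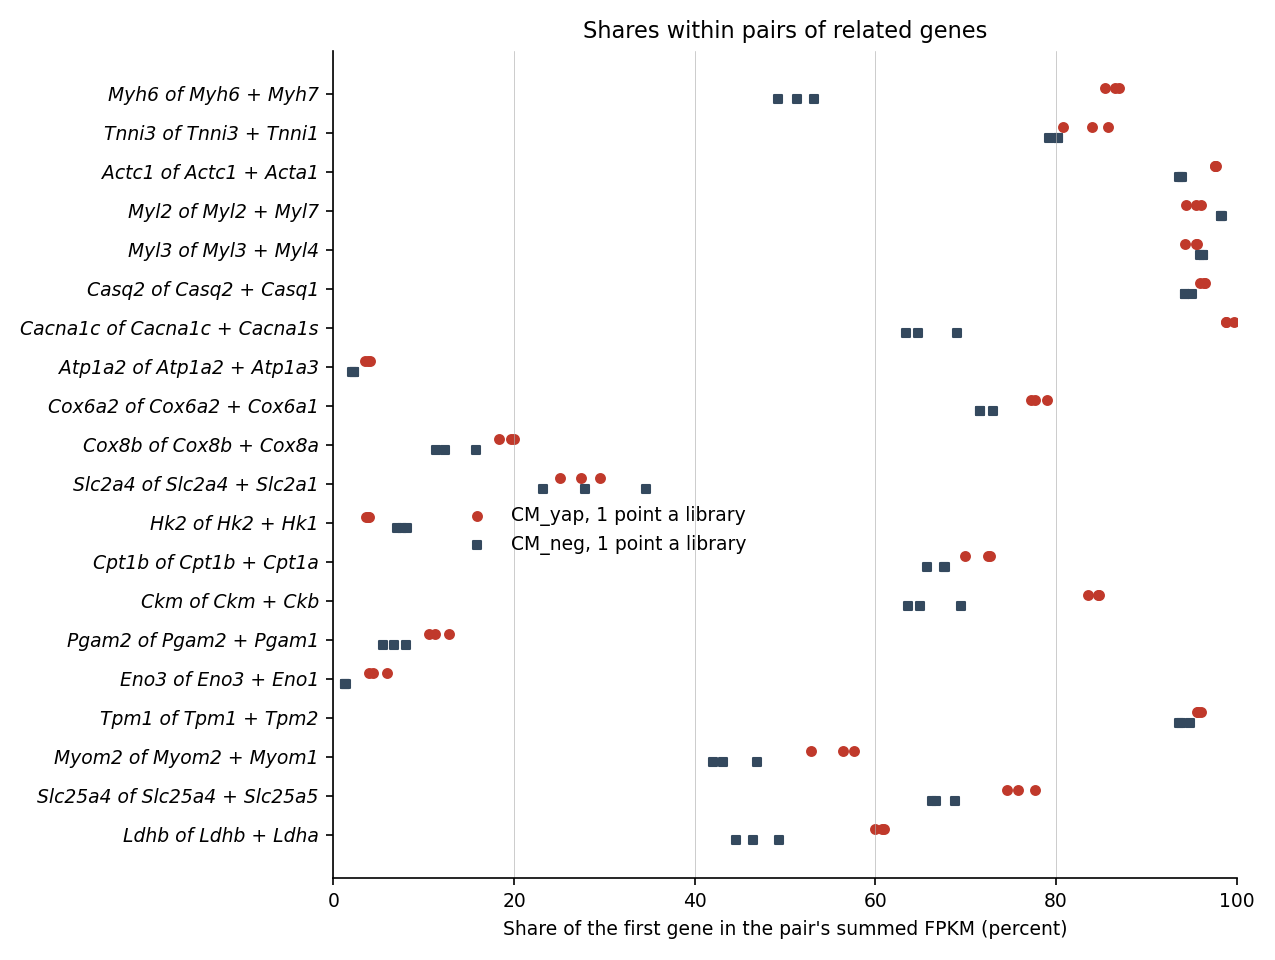
For each pair of related genes, the share of the first gene in the summed FPKM of both is drawn in percent for the 3 Yap-siRNA (CM_yap, red circles) and the 3 control-siRNA libraries (CM_neg, dark squares). The largest shifts are those of Myh6 against Myh7 and of Cacna1c against Cacna1s, and among the pairs drawn only Slc2a4 against Slc2a1 overlaps between the groups.

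Pairs of related genes with a mature or muscle form and a fetal or general form shifted beyond the myosins as well. The share of Ckm, the muscle creatine kinase, in the sum with Ckb was 84.3 ± 0.70% with Yap siRNA and 66.0 ± 3.09% with control siRNA. That of Ldhb, the heart form of lactate dehydrogenase, in the sum with Ldha was 60.6 ± 0.51% with Yap siRNA and 46.8 ± 2.39% with control siRNA. That of Slc25a4, the muscle form of the adenine nucleotide carrier, in the sum with Slc25a5 was 76.0 ± 1.51% with Yap siRNA and 67.3 ± 1.38% with control siRNA (SD, n = 3 each). The groups did not overlap for any of these. Hk2, the insulin-responsive hexokinase, went against this pattern, with 3.82% of the sum with Hk1 under Yap siRNA and 7.58% under control siRNA. So did the ventricular light chain genes. Myl2 made up 95.3 ± 0.89% of the sum with its atrial counterpart Myl7 under Yap siRNA and 98.3 ± 0.10% under control siRNA, and Myl3 made up 95.1% of the sum with Myl4 under Yap siRNA and 96.2% under control siRNA. The muscle glucose transporter Slc2a4 made up 27.4 ± 2.25% of the sum with Slc2a1 under Yap siRNA and 28.6 ± 5.71% under control siRNA, and these values overlap. Of 22 pairs listed, 21 could be computed. With 3 libraries a side an exact permutation test cannot give a p below 0.1, so the shares are described by their spread.

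Genes of excitation and calcium handling were more often higher than lower. Of 23 genes of the sarcoplasmic reticulum, the calcium store, 13 were higher and 4 lower (median 0.26). Hrc, a calcium-binding protein of its lumen, stood at 128, 142 and 131 FPKM with Yap siRNA, against 34.8, 33.1 and 43.5 FPKM with control siRNA (1.83 ± 0.11, adjusted p = 1.36e-08). Trdn, the triadin that links the calcium store to its release channel, stood at 58.4, 73.5 and 53.4 FPKM with Yap siRNA, against 16.4, 15.9 and 19.0 FPKM with control siRNA (1.78 ± 0.13). Both lay higher in every Yap-siRNA library than in any control library. Atp2a2, the calcium pump SERCA2, rose by 0.53, Ryr2, the release channel, by 0.70, and Pln, the inhibitor of the pump, by 0.57. Itpr1, the release channel opened by inositol trisphosphate, fell by 0.51.

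Of 28 calcium and sodium channel and exchanger genes of the plasma membrane, 15 were higher and 3 lower (median 0.30). The largest change among them was in Cacna1s, the calcium channel subunit of skeletal muscle, which stood at 0.15, 0.05 and 0.21 FPKM with Yap siRNA, against 6.09, 5.98 and 6.19 FPKM with control siRNA. It was nearly lost from the Yap-siRNA libraries (−2.64 ± 0.12 on the log2(FPKM + 1) scale, adjusted p = 9.9e-10). Cacna1c, its cardiac counterpart, stood at 12.9, 15.8 and 17.1 FPKM with Yap siRNA, against 10.6, 10.9 and 13.8 FPKM with control siRNA. These values overlap, and its call (0.35 ± 0.12, adjusted p = 0.0265) was lost under several alternatives. The cardiac form held 99.1 ± 0.50% of the sum of both with Yap siRNA and 65.7 ± 2.93% with control siRNA. Cacna1g, a T-type channel, rose by 1.46. Scn4b, a beta subunit of the sodium channel, rose by 1.75.

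**Figure D5:**
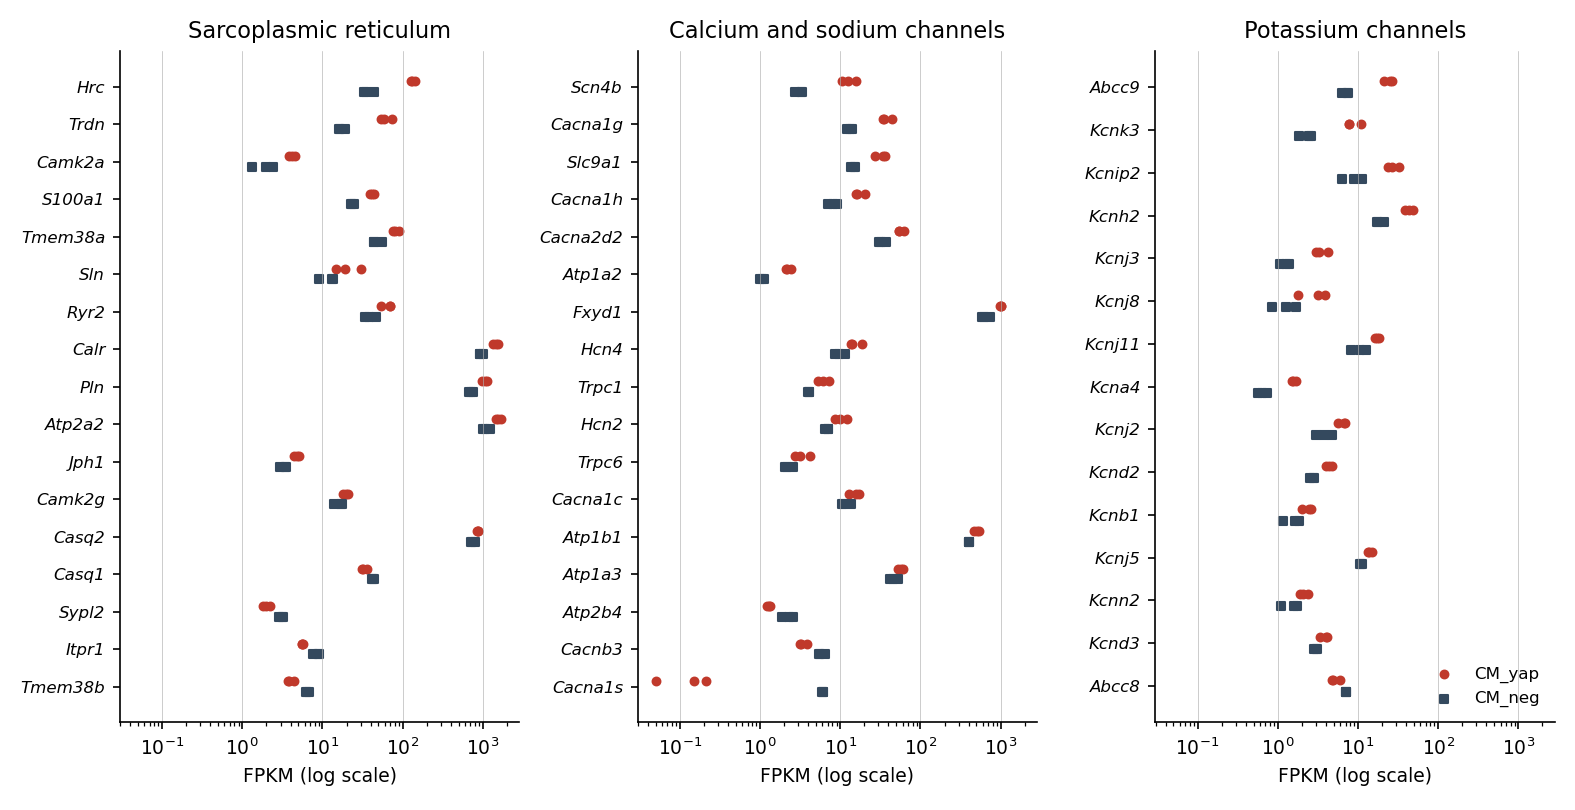
FPKM (log axis) in each library of called genes of the calcium store, of calcium and sodium transport and of potassium channels, with the Yap-siRNA libraries (CM_yap, red circles) drawn above the control-siRNA libraries (CM_neg, dark squares) and genes ordered by log2 fold change. Cacna1s reaches at most 0.21 FPKM with Yap siRNA, whereas Hrc and Trdn lie higher in every Yap-siRNA library than in any control library.

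Of 22 potassium channel genes 14 were higher and 1 lower (median 0.37). With a pseudocount of 0.1, 9 were called higher. Without control replicate 1, 2 were called lower. Abcc9, the regulatory subunit of the ATP-sensitive channel, stood at 21.2, 24.8 and 26.4 FPKM with Yap siRNA, against 6.27, 7.47 and 7.27 FPKM with control siRNA (1.65). Kcnip2, the subunit that sets the transient outward current, stood at 26.6, 23.6 and 32.5 FPKM with Yap siRNA, against 8.97, 6.26 and 11.2 FPKM with control siRNA (1.56). Kcnh2, the channel of the rapid delayed rectifier, stood at 43.3, 38.1 and 48.9 FPKM with Yap siRNA, against 17.4, 17.8 and 21.2 FPKM with control siRNA (1.16). The groups were separate for all 3. Abcc9 and Kcnj8, which rose by 0.79, are also markers of pericytes. The 17 smooth muscle and pericyte markers as a list had 9 higher and 5 lower members, and their summed level of 1605.9 to 1674.4 FPKM with Yap siRNA, against 3828.2 to 3934.1 FPKM with control siRNA, was carried by Acta2 and Tagln, which fell.

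The intercalated disc, where cardiomyocytes join, was split. Of 17 genes 3 were higher and 7 lower, and the 3 that rose were connexins of the gap junction. Gja1, connexin 43, stood at 322, 324 and 339 FPKM with Yap siRNA, against 169, 173 and 177 FPKM with control siRNA (0.92). Gjc1 and Gja5, which encode further cardiac connexins, each rose by 0.74. The fallen members belong to the adhesion junctions and desmosomes, among them Dsc2, a desmosomal cadherin (−0.89), Vcl, vinculin (−0.78), and Ctnnb1, beta-catenin (−0.59). Cdh2, the cadherin of the disc, had a log2 fold change of −0.10 and did not pass.

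Receptors and regulators of the heart's response to hormones changed in both directions, with 17 of 37 genes higher and 10 lower (median 0.19). Adra1b, an alpha-1 adrenergic receptor, stood at 18.3, 15.3 and 20.7 FPKM with Yap siRNA, against 6.34, 5.28 and 5.98 FPKM with control siRNA (1.47 ± 0.14). Adora1, an adenosine receptor, rose by 1.46, Ace, angiotensin-converting enzyme, by 1.21, and Chrm2, the muscarinic receptor of the heart, by 0.79. Adrb1, the main beta-adrenergic receptor of cardiomyocytes, had a log2 fold change of 0.06 and did not pass. The natriuretic peptides fell unequally. Nppb, brain natriuretic peptide, stood at 1215, 1008 and 1113 FPKM with Yap siRNA, against 2908, 2759 and 2847 FPKM with control siRNA (−1.35). Nppa stood at 7482, 7585 and 7332 FPKM with Yap siRNA, against 9650.2, 9151 and 9683 FPKM with control siRNA. Npr3, their clearance receptor, fell by 1.10.

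Of 27 transcription factor genes of the cardiac lineage, 14 were higher and 3 lower (median 0.31), and without Yap-siRNA replicate 3, 5 were lower. Irx3, of the Iroquois family and known for the fast conduction system, stood at 73.6, 84.3 and 77.7 FPKM with Yap siRNA, against 21.5, 22.4 and 22.1 FPKM with control siRNA (1.79). Hopx, a homeodomain protein that binds no DNA and restrains SRF, stood at 13.9, 13.1 and 14.3 FPKM with Yap siRNA, against 3.66, 3.47 and 4.49 FPKM with control siRNA. Mef2d, a factor of muscle differentiation, stood at 94.5, 97.7 and 93.5 FPKM with Yap siRNA, against 42.8, 49.8 and 53.9 FPKM with control siRNA. All 3 were separate between the groups. Tbx5 rose by 0.85, Hand2 by 0.55 and Irx4, a ventricular factor, by 0.72. Gata4, a core cardiac factor, fell by 0.30, and Nkx2-5, another, had a log2 fold change of 0.22 that did not pass (adjusted p = 0.105).

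Regulators of metabolic genes followed with 15 of 29 higher and 5 lower (median 0.24), or 3 lower without Yap-siRNA replicate 2. Thrb, a thyroid hormone receptor, stood at 4.55, 4.17 and 4.37 FPKM with Yap siRNA, against 1.62, 1.05 and 1.66 FPKM with control siRNA (1.14), and Thra, the other, rose by 0.76. Rxrg, a partner of nuclear receptors, rose by 1.66. Perm1, a muscle regulator of the PGC-1 and ERR program, stood at 26.2, 22.1 and 29.1 FPKM with Yap siRNA, against 10.4, 9.71 and 13.7 FPKM with control siRNA. Esrrg, an estrogen-related receptor, rose by 0.82. Ppargc1a, the coactivator PGC-1 alpha (0.32), and Ppara, a fatty acid sensor (−0.25), did not pass.

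Genes of fatty acid use had the largest share of higher members among the lists, 82.1%, next to 81.8% of thick filament genes. Of 28 genes of fatty acid uptake and oxidation 23 were higher and none lower (median 0.53, against −0.06 over all genes). Acsl1, which activates fatty acids with coenzyme A, stood at 89.8, 102 and 109.8 FPKM with Yap siRNA, against 38.1, 34.8 and 41.2 FPKM with control siRNA (1.38). Hadh, an enzyme of beta-oxidation, stood at 95.7, 83.9 and 109 FPKM with Yap siRNA, against 38.5, 31.4 and 44.4 FPKM with control siRNA (1.32). Ucp2, an uncoupling protein of the inner membrane, stood at 505, 380.5 and 489.6 FPKM with Yap siRNA, against 214, 189.7 and 224 FPKM with control siRNA (1.12). Each lay higher in every Yap-siRNA library. Cpt1b, the carnitine transferase at the entry to the mitochondrion, rose by 0.78 and Cd36, a fatty acid transporter, by 0.55. The 5 members that did not pass were Acadl, Hadhb, Decr1, Etfa and Echs1, with log2 fold changes from −0.03 to 0.18. Lipid storage was mixed, with 9 of 21 genes higher and 5 lower. Cidea, a lipid droplet protein, stood at 397, 429 and 383 FPKM with Yap siRNA, against 129.5, 125 and 170.2 FPKM with control siRNA. Lpin1, a phosphatidate phosphatase and coregulator, rose by 1.34, and Angptl4, a lipase inhibitor, fell by 0.99.

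Subunits of the respiratory chain rose with none called lower: 19 of 34 for complex I (median 0.26) and 21 of 38 for complexes III to V (median 0.33). With quantile normalization complexes III to V had 20 higher and 2 lower, and a single subunit was called lower in complex I without Yap-siRNA replicate 1 and in complexes III to V without Yap-siRNA replicate 3 or control replicate 2. Atp5i, a small subunit of the ATP synthase, stood at 1712, 1885 and 1519 FPKM with Yap siRNA, against 463, 446 and 560.1 FPKM with control siRNA (1.80). Ndufb2, an accessory subunit of complex I, stood at 379.9, 402 and 341 FPKM with Yap siRNA, against 156, 149 and 182 FPKM with control siRNA (1.21 ± 0.10). Both encode very small proteins. The ribosomal RNA genes Rn5s and Rn5-8s, very short and not polyadenylated, moved the same way. Rn5s stood at 33.4, 34.7 and 29.6 FPKM with Yap siRNA, against 5.15, 3.88 and 1.29 FPKM with control siRNA, and Rn5-8s at 72.0, 69.7 and 43.7 FPKM with Yap siRNA, against 8.36, 8.52 and 11.4 FPKM with control siRNA. The table gives no transcript length, and whether short transcripts rose as a class was not tested. Cox6a2, the muscle form of a cytochrome oxidase subunit, held 78.0 ± 0.87% of the sum with Cox6a1 under Yap siRNA and 72.0 ± 0.81% under control siRNA. Of 30 genes of the tricarboxylic acid cycle and pyruvate entry 13 were higher and 5 lower. Pdk2 and Pdk4, kinases that close the entry of pyruvate, rose by 0.67 each, and Pdha1, a subunit of the complex they inhibit, fell by 0.66.

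Glycolysis was mixed, with 7 of 27 genes higher (25.9%) and 10 lower (37%, median −0.09). Over all genes tested 21.7% were higher and 29.3% lower. With median-of-ratios scaling 10 glycolysis genes were higher and 7 lower (median −0.011), so which direction prevails depends on the scaling. Eno1, the general enolase, stood at 574, 479 and 588 FPKM with Yap siRNA, against 916, 862 and 881 FPKM with control siRNA (−0.70). Pfkfb3, which makes the activator of phosphofructokinase, stood at 6.23, 6.34 and 5.6 FPKM with Yap siRNA, against 12.6, 14.3 and 13.4 FPKM with control siRNA (−1.03). Both were lower in every Yap-siRNA library. The muscle forms Eno3 and Pfkm rose, by 1.12 and 0.72. Glycogen genes had 7 of 15 higher, among them Pygm, muscle glycogen phosphorylase (0.65), and 2 lower. The count of lower ones was 1 without Yap-siRNA replicate 1 or control replicate 2 or 3, and 0 with median-of-ratios scaling.

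Most genes of lipid synthesis fell. Of 23 genes of cholesterol synthesis and uptake none was called higher and 20 were lower (median −0.73). Under median-of-ratios scaling 2 were higher and 19 lower. Without Yap-siRNA replicate 3, 2 were higher, and without control replicate 1, 1 was. Idi1, an isomerase of the pathway, stood at 13.2, 12.8 and 13.6 FPKM with Yap siRNA, against 31.6, 31.5 and 27.5 FPKM with control siRNA (−1.13). Of 13 genes of fatty acid synthesis and desaturation 2 were higher and 10 lower (median −0.48). Elovl6, an elongase, fell by 1.11 and Scd, a desaturase, by 1.04. The members that rose were Acss2, which activates acetate (0.83), and Acacb, whose product malonyl-CoA restrains fatty acid entry into mitochondria (0.84).

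Ligand genes of several growth pathways were among those that fell. Of 9 ErbB receptor and ligand genes none was higher and 5 were lower (median −0.54), or 3 lower with a pseudocount of 0.1. Hbegf, heparin-binding EGF-like growth factor, stood at 17.1, 14.2 and 19.6 FPKM with Yap siRNA, against 38.5, 47.1 and 38.0 FPKM with control siRNA (−1.23). Erbb4, the neuregulin receptor of cardiomyocytes, fell by 0.54, while Erbb2 and Egfr did not pass (−0.03 and 0.05). Of 26 genes of the TGF-beta family 3 were higher and 16 lower (median −0.36). Tgfb3 stood at 20.9, 17.0 and 24.7 FPKM with Yap siRNA, against 80.5, 79.4 and 78.6 FPKM with control siRNA (−1.90). Gdf11, a relative of myostatin, moved the other way, to 6.30, 6.34 and 5.71 FPKM with Yap siRNA, against 1.54, 1.69 and 1.32 FPKM with control siRNA (1.5). Both were separate between the groups.

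The fibroblast growth factor and PDGF genes had 5 of 22 higher (22.7%) and 7 lower (31.8%), close to the 21.7% and 29.3% over all genes. Beside the fall of Fgfr2, Fgfr1, the main receptor of cardiomyocytes, fell by 0.77, and the ligand genes Fgf9 and Fgf1 rose by 1.15 and 1.01. In the insulin-like growth factor system 4 of 16 were higher and 8 lower, or 2 higher without control replicate 1. Igf1r, the receptor, stood at 6.41, 6.18 and 7.58 FPKM with Yap siRNA, against 11.2, 13.4 and 12.4 FPKM with control siRNA (−0.79). Igf2r, which clears the ligand, fell by 0.83. Notch genes had 3 of 18 higher and 8 lower, and 1 higher without Yap-siRNA replicate 1 or control replicate 1 or 3. Jag1, a ligand, stood at 13.6, 12.6 and 12.1 FPKM with Yap siRNA, against 28.4, 26.7 and 21.4 FPKM with control siRNA (−0.94). Wnt genes were evenly split, with 8 of 24 higher and 7 lower, and their median of −0.01 turned to 0.07 under median-of-ratios scaling. The secreted antagonists Wif1 (1.54) and Dkk3 (1.16) and the nuclear factor Lef1 (1.30) rose, and the receptor gene Fzd2 fell by 1.46. BMP genes had 5 of 20 higher (25%) and 6 lower (30%), also close to the shares over all genes.

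Most adhesion genes fell. Of 37 integrin and focal adhesion genes 4 were higher and 27 lower (median −0.37). Itgb1, the beta subunit shared by most matrix receptors of cardiomyocytes, stood at 337, 349 and 368 FPKM with Yap siRNA, against 763, 777 and 737 FPKM with control siRNA (−1.11 ± 0.06 SE, adjusted p = 5.4e-09). Its level in every Yap-siRNA library was under that of every control library. Parva, an adaptor that ties integrins to actin, had a log2 fold change of −0.96, as did the actin crosslinker Actn4. Tln1, talin, fell by 0.72 and Vcl by 0.78. Sorbs3, a vinculin-binding protein, went the other way, at 69.7, 64.5 and 64.1 FPKM with Yap siRNA, against 30.7, 31.5 and 34.0 FPKM with control siRNA (1.02). The counts for matrix genes were more even. Of 18 collagen genes 3 were higher (16.7%) and 5 lower (27.8%), beside 21.7% and 29.3% over all genes. The collagen median of −0.06 turned to 0.02 under median-of-ratios scaling. Laminins and their linkers had 5 of 18 higher and 8 lower, with falls of Lamb3 (−1.34) and Lama5 (−1.04), chains of epithelial and general laminins, and a rise of Sspn, sarcospan of the muscle membrane (1.04). Among matricellular and proteoglycan genes 7 of 26 were higher and 9 lower. Thbs1, thrombospondin 1, stood at 173, 176 and 183 FPKM with Yap siRNA, against 372, 436 and 326 FPKM with control siRNA. Dcn, decorin, which is also a fibroblast marker, stood at 33.9, 37.5 and 28.6 FPKM with Yap siRNA, against 16.6, 18.4 and 12.7 FPKM with control siRNA (1.03). Of the 14 fibroblast markers Lum (0.65), Dpt (0.53) and Gsn (0.24) rose beside it and none was called lower, while Col1a1 (−0.04) and Tcf21 (0.07) were among those that did not pass. Genes of proteases and their inhibitors had 4 of 25 higher and 10 lower.

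Most genes of cell division fell. Of 42 mitosis genes 40 were lower and none higher (median −0.62), of 42 replication genes 35 were lower and 1 higher (median −0.63), and of 22 genes of recombination and Fanconi repair 19 were lower and none higher (median −0.49), or 1 higher without control replicate 2. Cdk1, the kinase that starts mitosis, stood at 33.6, 31.3 and 34.4 FPKM with Yap siRNA, against 75.5, 73.0 and 68.7 FPKM with control siRNA (−1.11). Rrm2, of ribonucleotide reductase, stood at 41.9, 32.5 and 34.2 FPKM with Yap siRNA, against 115, 107 and 99.5 FPKM with control siRNA (−1.55). Ect2, which cytokinesis needs, stood at 5.64, 4.68 and 5.02 FPKM with Yap siRNA, against 14.9, 15.2 and 13.1 FPKM with control siRNA (−1.33). All 3 were lower in every Yap-siRNA library. Gins2, of the replicative helicase, was the replication gene that rose, at 17.5, 18.8 and 16.9 FPKM with Yap siRNA, against 12.1, 11.6 and 12.5 FPKM with control siRNA (0.52). The mitosis genes that did not pass were Cdc25b and Ndc80 (−0.29 each).

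Most of the G1 regulators that were called fell. Of 25 genes 3 were higher and 16 lower (median −0.46), or 1 higher without Yap-siRNA replicate 3 or control replicate 2. Ccnd1, cyclin D1, stood at 31.5, 28.9 and 29.9 FPKM with Yap siRNA, against 72.4, 70.6 and 62.7 FPKM with control siRNA (−1.16). E2f1, the activator of S-phase genes, fell by 1.20 and Cdk6, a partner of the D cyclins, by 1.05. Cdkn1c, the inhibitor p57, stood at 7.02, 6.79 and 7.24 FPKM with Yap siRNA, against 2.07, 2.21 and 2.18 FPKM with control siRNA (1.35). Cdkn1b, the inhibitor p27, rose by 0.25. Cdkn1a, the inhibitor p21, had a log2 fold change of 0.11 and did not pass. Which cell types of the culture expressed these genes cannot be told from bulk samples. Most endothelial markers that were called were lower too. Of those 17 markers 8 were lower and 1 higher (median −0.25), or 5 lower without Yap-siRNA replicate 2 or 3 or control replicate 2. The count of lower markers was also 5 with median-of-ratios scaling, and it was 6 after quantile normalization. Pecam1, the endothelial adhesion molecule, stood at 67.8, 53.2 and 56.9 FPKM with Yap siRNA, against 93.5, 95.1 and 77.1 FPKM with control siRNA. Kdr was the endothelial marker called higher (0.34), and Erg, Emcn and Nos3 were among those that did not pass. The leukocyte markers had 2 of 11 higher, or 1 without Yap-siRNA replicate 1 or 2 or control replicate 1 or 3, and 4 lower. The fibroblast markers had 4 of 14 higher and none lower, or 2 lower without Yap-siRNA replicate 1 or control replicate 3. Of the 8 epicardial markers 4 were lower and 1 higher. Without Yap-siRNA replicate 3 or control replicate 2, 2 of them were lower, and without Yap-siRNA replicate 1 none was higher. The part of any of them in the fall of division genes was not tested.

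Protein synthesis moved unevenly. Cytosolic ribosomal protein genes had 25 of 53 higher and 7 lower (median 0.17), but 17 higher and 15 lower after quantile normalization, with a median of 0.03. Rpl38 stood at 1013, 1125 and 821 FPKM with Yap siRNA, against 381, 393 and 468 FPKM with control siRNA (1.24), while Rplp0, of the ribosomal stalk, fell by 0.41. As with the respiratory subunits, many of these genes encode small proteins, and the values of Rn5s and Rn5-8s given above stand beside them. Genes of ribosome assembly had 4 of 33 higher and 17 lower (median −0.21). Aminoacyl-tRNA synthetases and targets of the stress factor ATF4 had 5 of 38 higher and 31 lower (median −0.39). Mthfd2, of mitochondrial folate metabolism, stood at 33.8, 27.7 and 31.1 FPKM with Yap siRNA, against 68.4, 71.1 and 60.4 FPKM with control siRNA (−1.09). Asns, asparagine synthetase, fell by 1.01, Phgdh, the first enzyme of serine synthesis, by 0.82, and Iars, the isoleucine synthetase, by 0.62. Among the members that rose were Qars, the glutamine synthetase of this class (0.29), and Ddit3, the factor CHOP (0.43).

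Protein quality genes were mixed. The muscle ubiquitin ligase genes Fbxo32, atrogin-1 (1.09), and Trim63, MuRF1 (0.63), rose, whereas Trim55, MuRF2, had a log2 fold change of −0.15 and did not pass. The proteasome genes Psmd3 and Psmb5 fell by 0.52 and 0.47. The joint list had 9 of 33 higher (27.3%) and 10 lower (30.3%), near the shares over all genes. Autophagy and lysosome genes had 13 of 38 higher and 7 lower, or 4 lower without control replicate 2. With median-of-ratios scaling 18 were higher and 4 lower. Ulk1, the kinase that starts autophagy, rose by 1.14, and Map1lc3b, which coats autophagosomes, by 0.67. Among 30 heat shock genes 7 were higher and 7 lower. Bag3 (0.82) and its small heat shock partners Hspb6 (0.91) and Hspb7 (0.69), all abundant in muscle, rose, and Hspb1 (−0.64) and Dnajb5 (−1.05) fell. Endoplasmic reticulum chaperones had 8 of 23 higher and 4 lower, and 13 higher under median-of-ratios scaling.

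Antioxidant genes were even, with 10 of 34 higher and 10 lower (29.4% each, beside 21.7% higher and 29.3% lower over all genes). Gstm2, a glutathione transferase, stood at 17.2, 15.7 and 16.5 FPKM with Yap siRNA, against 58.3, 56.4 and 72.8 FPKM with control siRNA (−1.85), and Gsta4, another, at 74.6, 90.9 and 71.9 FPKM with Yap siRNA, against 38.7, 35.1 and 38.0 FPKM with control siRNA (1.06). Sod1 rose by 0.61 and Sod2, the mitochondrial form, fell by 0.61. Of 23 p53 targets 5 were higher (21.7%) and 7 lower (30.4%), close to the shares over all genes. Perp stood at 1.21 and Gadd45g at −1.18.

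Immune signal genes were lower on balance, against a rise of a few secreted defence genes. Chemokine ligands had 13 of 19 lower and 1 higher (median −0.42). The count of 1 higher became 0 without Yap-siRNA replicate 1 or 2 or control replicate 1 or 3. Cxcl10, an interferon-induced chemokine, stood at 203, 167 and 147 FPKM with Yap siRNA, against 440.2, 446 and 400.2 FPKM with control siRNA (−1.32), and every Yap-siRNA library was lower. Interferon-stimulated genes had 20 of 35 lower and 1 higher (median −0.36), with Oasl, an antiviral effector, at −1.08. Genes of the NF-kappaB pathway had 13 of 27 lower and 3 higher. Complement genes had 8 of 18 lower and 2 higher, and one that rose was Cd59, a surface inhibitor of complement, at 298, 337 and 279.9 FPKM with Yap siRNA, against 131, 139 and 152 FPKM with control siRNA. Acute-phase and secreted defence genes had 6 of 21 higher and 9 lower, which sets the rises of Reg3b, Pla2g2a and Hamp beside falls of Lcn2, lipocalin 2 (−1.12), Nos2, inducible nitric oxide synthase (−0.84), and Ptgs2, cyclooxygenase 2 (−0.88). Of the immediate early genes, 2 of 26 were higher, or 1 on leaving out any library other than Yap-siRNA replicate 2, and 10 lower (median −0.15), and Egr1, Jun and Fosb did not pass.

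The last comparison asked where the effect of Yap siRNA differed from that in cardiac fibroblasts. The difference between the effects, cardiomyocytes minus fibroblasts, was called higher for 1343 of the 11161 genes (12%) and lower for 2606 (23.3%). With median-of-ratios scaling these counts were 1902 and 1691, so which direction prevails depends on the scaling. Igfbp5 had the largest such difference among genes without the doubt that attaches to Myl6l (4.40 ± 0.32 SE, adjusted p = 1.65e-07). It stood at 2.50, 1.12 and 1.26 FPKM in Yap-siRNA fibroblasts, against 2.80, 2.29 and 1.78 FPKM in control fibroblasts, so it was low in both. Atp5i rose in cardiomyocytes and stood at 134, 166 and 126 FPKM in Yap-siRNA fibroblasts, against 138, 149 and 151 FPKM in control fibroblasts (difference 1.85 ± 0.15). Cygb, cytoglobin, stood at 9.81, 7.85 and 10.3 FPKM in Yap-siRNA cardiomyocytes, against 1.18, 2.06 and 1.28 FPKM in control cardiomyocytes, and was already high in fibroblasts, at 66.9 to 69.4 FPKM with Yap siRNA and 55.5 to 64.8 FPKM with control siRNA.

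At the other end stood secreted defence genes that moved in opposite directions in the cultures. C3, the central complement component, stood at 25.5, 25.2 and 19.6 FPKM in Yap-siRNA cardiomyocytes, against 42.6, 44.3 and 39.7 FPKM in control cardiomyocytes (−0.83). In fibroblasts it stood at 63.9, 58.2 and 56.1 FPKM with Yap siRNA, against 3.36, 4.69 and 4.17 FPKM with control siRNA, and the difference between the effects was −4.41 ± 0.15 (adjusted p = 1.26e-10). Lcn2 averaged 185 FPKM in Yap-siRNA cardiomyocytes and 403 FPKM in control cardiomyocytes, but 596 FPKM in Yap-siRNA fibroblasts and 118 FPKM in control fibroblasts (difference −3.46 ± 0.15). Slpi, a protease inhibitor, and Aqp1, a water channel, showed the same opposition, with differences of −4.34 and −3.10. Enpp2, autotaxin, did not pass in cardiomyocytes (−0.16), and its difference of −3.95 came from fibroblasts.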

How the data were processed

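The deposited table holds 1 column per library, in FPKM per the file headers; these were computed by the authors and carry no read counts. HISAT and Bowtie2 as tools and rn6 as genome build are named in the submitters' processing notes, while the quantification tool is not given in the sources used here. Low values gave no usable read steps: 28.3% of 12706 lay within 0.1 of a whole multiple, against 20% without steps. Symbols were restored in 29 of 31 damaged lines, and 14516 gene IDs (99.2%) matched a RefSeq table. All value columns were mapped to a sample (0 were not).

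The analysis used log2(FPKM + 1), a scale on which changes of low genes come out too small. The 4 groups of 3 libraries (both cell types, both siRNAs) shared 1 fit in limma 3.58.1 (lmFit, eBayes with a variance trend, R 4.3.3), with two-sided tests and Benjamini-Hochberg adjustment over 11161 genes. Fold changes are Yap siRNA over control siRNA, and ± after one is its SE. The fit was tested on simulated data. Python 3.11.15 with pandas 2.3.3, numpy 2.4.6 and matplotlib 3.10.9 made lists, shares and plots. Promoters came from RefSeq GRCr8, used for sequence only.

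Members, the 64 gene lists and the tests were chosen with earlier results of these data known. Named genes are Yap1, the 25 largest rises and 25 largest falls among called genes of at least 10 FPKM in the higher group with no overlap and a proper symbol, up to 4 called members with the smallest p for each list, members of isoform pairs, the 20 most abundant genes and the 10 largest differences between cell types in each direction. Further list members were named after their values were seen. Alternatives were a pseudocount of 0.1 or 5, a level limit of 5 FPKM or none, scaling by median of ratios or by quantiles, a block for the replicate number, a fit without the variance trend, the 6 cardiomyocyte libraries alone, and leaving out each cardiomyocyte library in turn.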

Additional observations from a re-analysis of the deposited data

Results flagged for a closer look

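The effect of Yap siRNA differed between cardiomyocytes and fibroblasts by limma's test of the difference, adjusted over 11161 genes, for the following genes, which had the 10 largest differences in each direction. Values are the log2 fold change in cardiomyocytes minus that in fibroblasts. The difference was 8.24 for Myl6l, which is listed at 0 in the control cardiomyocytes and in all fibroblast libraries and shares sequence with Myl6. It was 4.40 for Igfbp5, 2.91 for Sphkap, 2.38 for Lpar2, 2.37 for Dhrs7c, 1.87 for Lrrc39, 1.87 for Cygb and 1.85 for Atp5i, genes that rose in cardiomyocytes.

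For Notch3 (2.04) and Heyl (1.93), a receptor and a target of the Notch pathway, the difference came with a fall in fibroblasts. Notch3 averaged 11.9 FPKM in Yap-siRNA fibroblasts and 37.4 FPKM in control fibroblasts, with 3.30 FPKM in Yap-siRNA cardiomyocytes and 2.05 FPKM in control cardiomyocytes.

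In the other direction the difference was −4.41 for C3, −4.34 for Slpi, −3.95 for Enpp2, −3.46 for Lcn2, −3.38 for Cxcl6, −3.38 for Hpx, −3.35 for Csf2rb, −3.20 for Chi3l1, −3.10 for Aqp1 and −2.93 for Il33. All 10 averaged more in Yap-siRNA than in control fibroblasts. In cardiomyocytes C3, Slpi, Lcn2, Hpx, Csf2rb, Aqp1 and Il33 were called lower with Yap siRNA, Cxcl6 was called higher (0.46), and Enpp2 (−0.16) and Chi3l1 (0.25) did not pass. The cause of these differences was not tested.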

How the results depend on the processing

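Of 321 named genes 308 were called, and 33 changed their call in at least 1 of 15 alternatives. Of 128 list counts 43 moved by more than 1.5 times in at least 1 alternative, 22 of them on leaving out 1 library. Called genes with a log2 fold change of at least 1 numbered 438 upward and 332 downward with a pseudocount of 0.1, and 112 and 71 with a pseudocount of 5, which by construction widens or shrinks fold changes of low genes. The genes whose effect was lower in cardiomyocytes than in fibroblasts numbered 1691 with median-of-ratios scaling and 1674 with quantile normalization. Small fold changes turned in sign. With median-of-ratios scaling Tnnc1 stood at 0.068 and Tpm2 at 0.03. With quantile normalization Gapdh stood at −0.13, Tpt1 at −0.05, Atp5b at −0.047, Slc25a4 at −0.048 and Cox6a1 at −0.026. Leaving out single libraries moved Tnnc1 between −0.055 and 0.028, Slc2a4 between −0.078 and 0.22, Tnnt1 between −0.068 and 0.21 and Ckb between −0.069 and 0.08. The cause was not tested. Libraries of equal replicate number deviated together only weakly (correlations of 0.15, 0.04 and 0.09), and those of unequal number had correlations from −0.163 to 0.064. With 3 libraries a side, these values cannot tell whether the numbers pair the samples. The fit with replicate number as a block called 2420 genes higher and 3212 lower. Sequencing depth is unknown, so no counting error can be given for low genes.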
